A study of Mus musculus with 4 samples.

Results

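The contrast described here is aTreg against rTreg cells in the genotype labelled Ripk1 knockout, with 1 library each, which are 2 of the 4 libraries of the series. The libraries were taken by their labels and not by any measured value. Of 19044 gene symbols with counts, 9680 reached a mean level of 5 CPM (counts scaled so that library totals are equal), and these are called measured. Regulatory T (Treg) cells are CD4 T cells that depend on the transcription factor Foxp3 and hold immune responses in check. They were taken from untreated mice, from the spleen together with peripheral lymph nodes. The knockout genotype was Ripk1fl/fl Foxp3-YFP-Cre, in which a Cre recombinase made only where Foxp3 is active removes the loxP-flanked part of Ripk1. The WT genotype was Foxp3-YFP-Cre, so Cre and the yellow fluorescent protein were common to all 4 libraries. The letters r and a are not explained in the labels; resting and activated are their usual meaning for Treg cells. The sources used here do not give the sorting gate, the number, age and sex of the mice, or any pooling of mice. Nor do they say whether the mice behind rTreg and aTreg were the same.

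Resting Treg cells recirculate through lymphoid organs, which they enter with the receptor CCR7 and leave through S1PR1, under transcription factors such as TCF1, LEF1 and BACH2. Activated Treg cells lose much of this equipment and gain inhibitory receptors, receptors for inflamed and barrier tissue, and secreted or cytotoxic effectors such as interleukin-10 and granzyme B. RIPK1 is a kinase and scaffold below death receptors, where it can serve NF-kappaB signalling or feed cell death through FADD and caspase-8 or through RIPK3 and MLKL.

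Ripk1 itself (chromosome 13, 34002363 to 34037147, plus strand, GRCm38) was at 84.7 CPM in the KO-labelled rTreg library and 80.8 CPM in the KO-labelled aTreg library, beside 83.6 and 77.5 CPM in WT rTreg and WT aTreg. The counts thus show no drop in the libraries labelled knockout. A count over the whole gene checks the loss of a part of it only weakly, the sources used here do not name the flanked exons, and Serpinb6a lies across it on the other strand. The libraries are therefore called KO-labelled throughout.

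The KO-labelled libraries held 17588754 (rTreg) and 18857718 (aTreg) counts, and the WT libraries 20868319 and 20633355. The level that 0 counts can hide, that of 3 counts, was 0.17 and 0.16 CPM in the KO-labelled libraries. Of the Treg and CD4 T cell markers, 7 of 8 were in the table, and their summed level was 3810 CPM in KO-labelled rTreg and 3850 CPM in KO-labelled aTreg. The B cell list summed to 751 and 712 CPM, nearly all of it Ighm (732 and 689 CPM), while Ms4a1 had 3 and 0 counts. The myeloid list summed to 22 and 17.7 CPM, most of it Cd68, the dendritic cell list to 3.12 and 5.38, the CD8 T cell list to 12.9 and 9.65, and the natural killer list to 7.61 and 7.57. Erythroid and platelet markers summed to 12.6 and 14.8 CPM, and stromal and endothelial markers to 2.38 and 4.48 CPM with Kdr at 0 in both. The part of these transcripts in the results below was not tested. Xist, the transcript of the inactive X chromosome of females, was at 0.284 and 0.213 CPM in the KO-labelled libraries and at 299 and 338 CPM in the WT libraries, and the Y-linked gene Ddx3y was at 126 and 112 CPM beside 121 and 97.5 CPM. Xist thus differed far more between the pairs than within them, and the Ddx3y levels of the pairs overlapped. In any comparison of the KO-labelled pair with WT, genotype cannot be told apart from what underlies this difference in Xist, such as the sex of the mice.

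KO-labelled aTreg cells differed from KO-labelled rTreg cells mostly by genes that were higher. At least 2-fold higher in aTreg were 92 genes (0.95% of those measured) and at least 2-fold lower were 13 (0.134%), together 1.08%, and 12 genes were at least 4-fold higher while none was 4-fold lower. At least 1.5-fold higher were 296 genes (3.06%) and at least 1.5-fold lower 143 (1.48%), together 4.54%. The median log2 ratio over all measured genes was 0.00405, and the middle 50 percent of genes lay between −0.133 and 0.146. The contrast has no replicate and therefore no test of its own. Each log2 ratio is given with a 95% exact binomial interval of the ratio of counts, in square brackets, which covers counting error only. In these bulk libraries, fewer cells of a type and less RNA per cell cannot be told apart.

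The precision depended on the level. The interval reached, at the median, 0.367 log2 units to either side for the 1109 genes below 10 CPM, 0.223 for the 2616 genes from 10 to 30 CPM, 0.13 for the 3526 genes from 30 to 100 CPM and 0.0702 for the 2429 genes above. Of the 92 genes at least 2-fold higher, 36 were below 10 CPM and 3 above 100 CPM, and their median level was 14.3 CPM beside 42.9 CPM over all measured genes.

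**Figure D1:**
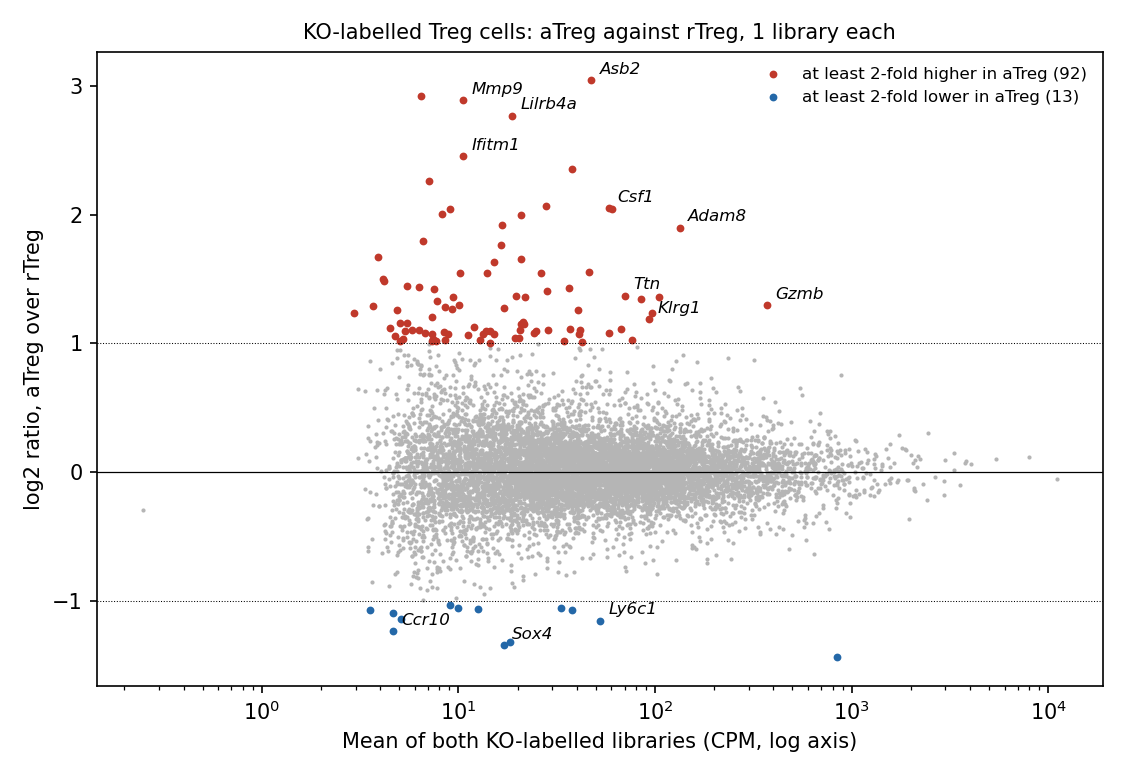
Log2 ratio of aTreg over rTreg in the KO-labelled pair (y axis) against the mean CPM of its 2 libraries (x axis, log scale), 1 point per measured gene, 1 library per group. Red points are the 92 genes at least 2-fold higher and blue points the 13 genes at least 2-fold lower in aTreg. Most red points lie at low levels, with Gzmb and Adam8 above 100 CPM, and Sox4 and Ly6c1 are among the blue points.

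The only test of state that the design allows joins both genotypes. edgeR's quasi-likelihood test with state and genotype as additive terms called 766 genes (7.91%) higher and 527 (5.44%) lower in aTreg at a Benjamini-Hochberg adjusted p of 0.05. It leaves 1 residual degree of freedom and uses the KO-labelled pair itself, so it is no independent check of it. That 1 degree of freedom is the disagreement between the genotypes in their state ratio, beside a prior weight drawn from all tested genes. No spread between replicates enters its p-values. Below, a gene "rose" or "fell" in aTreg only where this test called it, so these words depend on the WT pair too. Cxcl10 was called higher with a ratio of 0.21 [−0.008 to 0.43] in the KO-labelled pair and 1.74 in WT. S100a6, at 0.50 [0.44 to 0.56] beside −0.03 in WT, was not called. Of the 92 genes at least 2-fold higher in the KO-labelled pair, the test called 88, and the others were Camk2n1, Pde4a, Nebl and Stra6. All 13 genes at least 2-fold lower were called. Counts of called genes in each list below stand beside the 7.91% higher and 5.44% lower of all measured genes.

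Asb2, which encodes a substrate-binding subunit of a ubiquitin ligase, had the highest ratio (chromosome 12, 103321142 to 103356001, minus strand). Its level was 10.2 CPM in KO-labelled rTreg and 84.6 CPM in KO-labelled aTreg, beside 4.34 and 57.3 CPM in WT rTreg and WT aTreg. Both aTreg libraries were above both rTreg libraries. The log2 ratio was 3.04 [2.83 to 3.29] in the KO-labelled pair and 3.69 in WT (edgeR adjusted p = 5.92e-08 for state).

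Mmp9, a secreted gelatinase that cuts extracellular matrix, went from 2.44 to 18.8 CPM in the KO-labelled pair, a log2 ratio of 2.89 [2.48 to 3.43], and from 1.48 to 8.99 CPM in WT. Adam8, a membrane metalloprotease, had 996 counts in KO-labelled rTreg and 3963 in aTreg, which is 56.5 and 211 CPM and a ratio of 1.90 [1.80 to 2.0]. Mmp25, a membrane-bound matrix metalloprotease, was at 1.79 [1.38 to 2.30], and Chst11, which sulfates chondroitin, at 2.04 [1.67 to 2.50]. These 4 genes rose.

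The long noncoding RNA Miat went from 1.42 to 11.5 CPM (2.93 [2.41 to 3.67]). Plek, a protein kinase C substrate of blood cells that overlaps Cnrip1 on the opposite strand, was 1.64 higher [1.36 to 1.94], and Ptpn5, a tyrosine phosphatase gene, 1.67 higher [1.15 to 2.34]. Susd2, which encodes a membrane protein, was at 1.55, and Nr1d1, which encodes a nuclear receptor of the circadian clock and overlaps Thra on the opposite strand, at 1.5 [0.999 to 2.12]. These 5 genes rose, and Ptpn5 and Nr1d1 had only 32 and 37 counts in KO-labelled rTreg.

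Genes with the largest gain in CPM were a different set, since CPM follows abundance and transcript length. Ahnak, a very large scaffold protein gene, went from 658 to 1110 CPM (0.75 [0.72 to 0.79]) and rose, as did Junb (1569 to 1918 CPM), Gzmb (215 to 528 CPM) and Nbeal2 (426 to 668 CPM). The mitochondrial gene COX1, Actg1, Eef2, H2-D1, Myh9 and Itgb7 complete this group, were 0.10 to 0.30 log2 units higher, and did not pass the edgeR test. Of the genes with the largest loss in CPM, the nucleotide hydrolase Samhd1 (2209 to 1714 CPM), the condensin subunit Smc4 (780 to 503 CPM) and Ms4a4b (881 to 648 CPM) fell. In the same group Eef1a1, Ddx5, B2m, Tmsb4x, Malat1 and Ptprc, had ratios between −0.35 and −0.05 and did not pass.

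Inhibitory receptor genes were higher as a group in KO-labelled aTreg. Of 17 measured, 8 were at least 1.5-fold higher (3.06% of all measured genes were) and none lower, and the median log2 ratio was 0.49 beside 0.00405 over all genes. Over both genotypes 11 rose and 1, Btla, fell. Lilrb4a, a receptor of the leukocyte immunoglobulin-like family, was at 4.71 CPM in KO-labelled rTreg and 32.7 CPM in KO-labelled aTreg, and at 0.667 and 12 CPM in WT. Its relative Lilrb4b went from 12.4 to 63.6 CPM in the KO-labelled pair. The ratios were 2.77 [2.46 to 3.15] and 2.35 [2.15 to 2.58], and counting may exchange reads between these close relatives, so their separate values are uncertain.

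Pvrig, a receptor for nectin-family ligands, had 42 counts in KO-labelled rTreg and 222 in aTreg, a ratio of 2.26 [1.83 to 2.82]. Lag3, which binds MHC class II, went from 23.2 to 68.6 CPM in the KO-labelled pair and from 19.3 to 61.9 CPM in WT, with close values in libraries of the same state and a ratio of 1.56 [1.40 to 1.73] in the KO-labelled pair. Havcr2, which encodes TIM-3, was at 15.3 and 40.9 CPM (1.41 [1.22 to 1.62]). Klrg1 (1.19), Pdcd1, which encodes PD-1 (1.10), and Tigit (0.91) were the other members past 1.5-fold. Ctla4, a defining receptor of Treg cells, was at 334 and 349 CPM (0.06 [0.01 to 0.11]) and did not pass.

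Secreted and suppressive effector genes had the highest median of the 24 lists, 0.76. Of 26 measured, 16 were at least 1.5-fold and 9 at least 2-fold higher in KO-labelled aTreg, none was 1.5-fold lower, and 19 rose over both genotypes while none fell. Of all measured genes, 3.06% were at least 1.5-fold and 0.95% at least 2-fold higher, and 7.91% rose. The cytokine gene Csf1, the growth factor of macrophages (chromosome 3, 107741048 to 107760469, minus strand), was at 22.6 CPM in KO-labelled rTreg and 94.1 CPM in KO-labelled aTreg, and at 13.7 and 45.8 CPM in WT. Its ratio was 2.05 [1.90 to 2.21]. The chemokine gene Ccl5 went from 23.5 to 97.3 CPM (2.04 [1.89 to 2.21]), and the gene of the TNF family ligand LIGHT, Tnfsf14, from 4.03 to 11 CPM (1.42 [1.05 to 1.86]).

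Il10, the anti-inflammatory cytokine of activated Treg cells (chromosome 1, 131019845 to 131024974, plus strand), was at 7.44 CPM in KO-labelled rTreg and 25.5 CPM in KO-labelled aTreg, and at 4.05 and 47.9 CPM in WT. The KO-labelled aTreg library thus lay between the WT libraries. The log2 ratio was 1.77 [1.5 to 2.07] in the KO-labelled pair and 3.53 [3.24 to 3.90] in WT, and the difference between the pairs was not tested. Penk, which encodes the precursor of enkephalins, also had a smaller ratio in the KO-labelled pair (1.37 beside 2.48 in WT), and so did Ebi3, a subunit of interleukin-35 (0.77 beside 1.70).

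Of the cytotoxic granule genes, Gzmb and Nkg7 rose. Gzmb, the granule protease granzyme B (chromosome 14, 56258838 to 56262260, minus strand), was at 215 CPM in KO-labelled rTreg and 528 CPM in KO-labelled aTreg, beside 11.5 and 29.6 CPM in WT. Both KO-labelled libraries were above both WT libraries, and within each genotype aTreg was above rTreg. The ratio between states was 1.30 [1.24 to 1.35] in the KO-labelled pair and 1.35 [1.14 to 1.58] in WT. Nkg7, a granule membrane protein, was at 57.5 and 136 CPM (1.24 [1.13 to 1.34]), while the pore-forming Prf1 (0.87 beside −0.61 in WT) and Gzma (0.60) did not pass. Ifng was at 12.9 and 28.9 CPM (1.15 [0.93 to 1.39]) and rose. The natural killer markers summed to 7.61 and 7.57 CPM in the same libraries. Of their genes, Eomes had 123 and 112 counts, while Klrb1c went from 5 to 26 counts (0.284 to 1.39 CPM) and in WT from 0.619 to 2.33 CPM. Their part in the granule gene values was not tested.

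The promoters of 5 of these genes are shown because they hold a motif of AP-1 or NF-kappaB, factors that T cell receptor signals activate. Each is the 250 bases before the RefSeq start of the gene in GRCm38.p6, 5′ to 3′ on the strand of the gene, and capitals mark the match: NF-kappaB in Csf1 and AP-1 in the others.
Csf1 (chr3:107760470-107760719, minus strand): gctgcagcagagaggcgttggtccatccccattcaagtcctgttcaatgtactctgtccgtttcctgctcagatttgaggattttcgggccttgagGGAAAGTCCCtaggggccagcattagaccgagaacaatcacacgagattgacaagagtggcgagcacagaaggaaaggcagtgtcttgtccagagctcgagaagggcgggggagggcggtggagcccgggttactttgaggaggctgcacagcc
Gzmb (chr14:56262335-56262584, minus strand): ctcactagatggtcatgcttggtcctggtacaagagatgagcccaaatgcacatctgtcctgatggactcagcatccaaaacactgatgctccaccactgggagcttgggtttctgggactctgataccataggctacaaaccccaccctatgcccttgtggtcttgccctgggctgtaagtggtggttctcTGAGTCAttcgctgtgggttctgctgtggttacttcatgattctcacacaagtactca
Havcr2 (chr11:46454681-46454930, plus strand): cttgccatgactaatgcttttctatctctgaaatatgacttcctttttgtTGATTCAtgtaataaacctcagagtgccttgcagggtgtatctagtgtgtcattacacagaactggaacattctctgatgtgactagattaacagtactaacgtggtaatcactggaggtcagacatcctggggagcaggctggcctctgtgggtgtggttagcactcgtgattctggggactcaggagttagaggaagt
Tnfrsf8 (chr4:145315165-145315414, minus strand): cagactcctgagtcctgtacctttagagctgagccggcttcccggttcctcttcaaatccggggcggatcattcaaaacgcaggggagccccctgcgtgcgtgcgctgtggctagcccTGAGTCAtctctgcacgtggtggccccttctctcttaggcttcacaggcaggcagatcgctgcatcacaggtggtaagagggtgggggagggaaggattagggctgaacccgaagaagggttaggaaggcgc
Tnfsf14 (chr17:57194182-57194431, minus strand): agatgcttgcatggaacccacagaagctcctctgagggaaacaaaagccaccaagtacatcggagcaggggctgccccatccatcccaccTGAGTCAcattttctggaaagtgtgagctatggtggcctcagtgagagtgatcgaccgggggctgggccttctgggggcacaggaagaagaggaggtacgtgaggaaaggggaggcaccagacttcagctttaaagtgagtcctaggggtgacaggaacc

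The matches began 154 bases before the start in Csf1, 58 in Gzmb, 200 in Havcr2, 132 in Tnfrsf8 and 160 in Tnfsf14. RefSeq windows of 300 bases, from 250 before to 50 after a start, were at hand for 65 of the 91 ranked genes at least 2-fold higher in KO-labelled aTreg and for 7534 of all 9256 ranked genes. On either strand, the AP-1 motif TGANTCA was in a window of 8 of the 65 genes (12.3%), beside 5.56% of all genes. The consensus NF-kappaB motif was in 1 of the 65 (1.54%), beside 0.358% of all. The TCF motif TTCAAAG was in 7.69% beside 4.37%, and the ETS motif CCGGAAGT in 0% beside 10.9%. These shares describe letters in a window, and no test was made. Of the 12 ranked genes at least 2-fold lower, 7 had a window, and Vmn2r97 held an AP-1 match.

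Costimulatory and TNF receptor genes moved less. Of 16 measured, Tnfrsf8 and Cd40lg were at least 1.5-fold higher (3.06% of all genes were) and none was lower, with a median of 0.13. Over both genotypes 8 rose (7.91% of all genes did) and none fell. Tnfrsf8, which encodes CD30, had 77 counts in KO-labelled rTreg and 209 in aTreg (1.33 [0.97 to 1.75]), and Cd40lg, the ligand of CD40, was 0.62 higher [0.39 to 0.85]. Tnfrsf1b, which encodes TNFR2, went from 286 to 425 CPM (0.57 [0.52 to 0.62]), and Tnfrsf9, which encodes 4-1BB and overlaps Camta1 on the opposite strand, from 115 to 161 CPM (0.49). Both rose, whereas Tnfrsf25 (−0.04), Cd28 (−0.08) and Cd27 (0.00) did not pass.

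Cytokine receptor genes went both ways. Of 23 measured, 5 were at least 1.5-fold higher (Il1r2, Il18rap, Il1rl1, Il10ra and Il12rb2) and 1, Il6ra, at least 1.5-fold lower. The shares of all genes were 3.06% and 1.48%. Over both genotypes 6 rose and 5 fell, beside 7.91% and 5.44% of all genes. Il1r2, a decoy receptor for interleukin-1, was at 10.1 CPM in KO-labelled rTreg and 31.8 CPM in KO-labelled aTreg (1.65 [1.42 to 1.91]). Il18rap, a chain of the interleukin-18 receptor, was 1.03 higher [0.91 to 1.15], and Il1rl1, the receptor of interleukin-33, 0.69 higher [0.59 to 0.79]. All 3 rose. Il6ra went from 227 to 139 CPM (−0.70 [−0.77 to −0.63]) and fell, as did Il6st (−0.46), the signalling chain it pairs with. Il12rb2, whose product binds interleukin-12, was 0.62 higher in the KO-labelled pair and 1.36 lower in WT, where it had 19 and 6 counts, and did not pass. Il2ra, the high-affinity chain of the interleukin-2 receptor, was at 780 and 643 CPM (−0.28 [−0.31 to −0.24]) and did not pass (edgeR adjusted p = 0.0564).

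The transcription factor lists, chosen with earlier results of these data known, went opposite ways. Of 22 measured effector transcription factor genes, 10 were at least 1.5-fold higher in KO-labelled aTreg (3.06% of all genes were) and none lower, with a median of 0.46. Over both genotypes 17 rose (7.91% of all genes did) and none fell. Of 20 resting-state transcription factor genes, 3 were at least 1.5-fold lower (1.48% of all genes were) and none higher, with a median of −0.28. All 20 ratios were below 0, and 16 of them were so in WT too. Over both genotypes 13 fell (5.44% of all genes did) and none rose.

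Epas1, which encodes the hypoxia factor HIF-2alpha (chromosome 17, 86753700 to 86833410, plus strand), was at 10.7 CPM in KO-labelled rTreg and 45.4 CPM in KO-labelled aTreg, and at 3 and 9.62 CPM in WT. Its ratio was 2.07 [1.85 to 2.31]. Hic1 was 1.55 higher [1.22 to 1.92], less than in WT (2.63), and Ahr, the aryl hydrocarbon receptor, was 1.07 higher [0.92 to 1.24]. These 3 genes rose. Further members past 1.5-fold were Id2 (0.97), Tbx21 (0.95), Maf (0.89), Bhlhe40 (0.88), Prdm1, which encodes Blimp-1 (0.64), and Runx2 (0.62). Irf4, needed for effector Treg cells, was at 139 and 135 CPM (−0.04 [−0.12 to 0.04]) and did not pass.

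Sox4 led the resting-state factors. It was at 24.4 CPM in KO-labelled rTreg and 9.54 CPM in KO-labelled aTreg, and at 36.7 and 13.3 CPM in WT, so both aTreg libraries were below both rTreg libraries. The ratio was −1.35 [−1.61 to −1.10]. Bach2, a repressor of effector genes, went from 110 to 67.6 CPM (−0.71 [−0.81 to −0.61]), Lef1 from 195 to 129 CPM (−0.60 [−0.67 to −0.52]) and Tcf7, which encodes TCF1, from 577 to 412 CPM (−0.49 [−0.53 to −0.44]). All of them fell. Klf2, a factor for lymphoid recirculation, was at −0.15 [−0.20 to −0.10] beside −0.53 in WT, and fell.

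**Figure D2:**
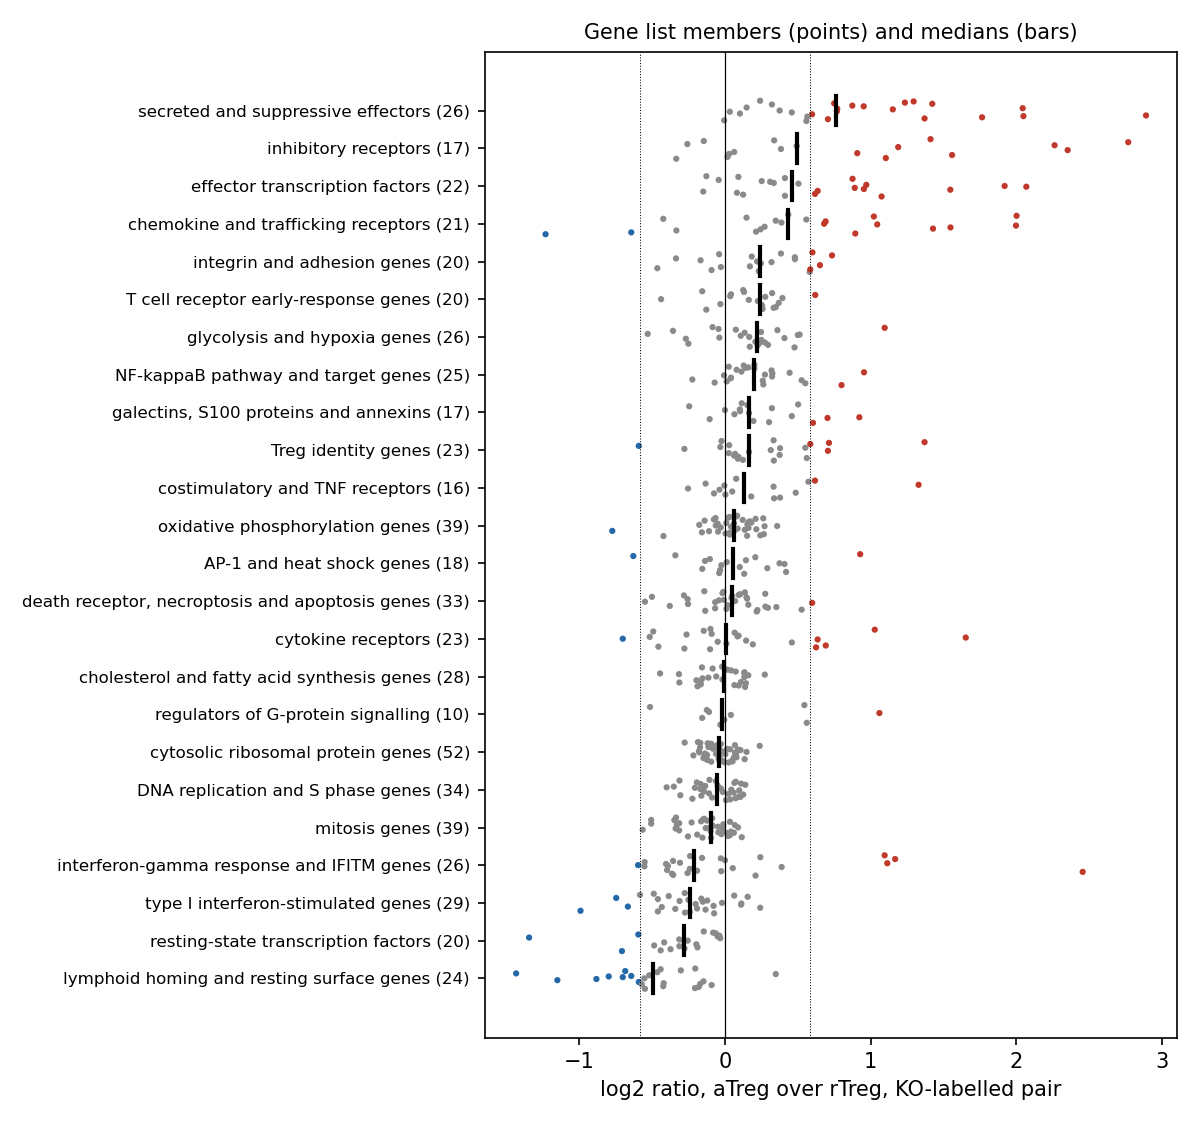
Log2 ratio of aTreg over rTreg in the KO-labelled pair (x axis) for the measured members of 24 gene lists (rows, with the number measured), 1 point per gene and 1 library per group. Black bars are list medians, dotted lines mark 1.5-fold, and red and blue points lie beyond them. The list of secreted effectors has the highest median, 0.76, and that of lymphoid homing genes the lowest, −0.49.

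Genes of lymphoid homing and the resting surface had the lowest median, −0.49. Of 24 measured, 8 were at least 1.5-fold lower (1.48% of all measured genes were) and none 1.5-fold higher, and 16 fell while 1, Gpr183, rose. CD44, which activated T cells carry more of, is often used to sort such cells, and no gate is given here. Cd44 was at 68.5 and 95.5 CPM (0.48 [0.37 to 0.59]) and rose.

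The surface protein gene Ly6c1 went from 72.3 to 32.5 CPM in the KO-labelled pair (−1.15 [−1.30 to −1.01]) and from 91.8 to 48.3 CPM in WT. Dapl1 (−0.88 [−1.40 to −0.43]) and the sialyltransferase gene St8sia6 (−0.80 [−0.97 to −0.64]) followed, and all 3 fell. Ccr7 went from 249 to 159 CPM (−0.64 [−0.71 to −0.58]) and S1pr1 from 487 to 363 CPM (−0.42 [−0.47 to −0.38]), and both fell. Il6ra (−0.70), Cnr2 (−0.69) and Gpr83 (−0.59) were further members past 1.5-fold, of which Cnr2 did not pass the edgeR test. The anti-apoptotic gene Bcl2 was 0.55 lower and fell, whereas Il7r (−0.09) did not pass.

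Below this list, other genes that were low in KO-labelled aTreg had diverse products. The vomeronasal receptor gene Vmn2r97 was at −1.32 [−1.57 to −1.08], from 461 to 196 counts. Atp1b1, a subunit of the sodium pump, was at −1.07 [−1.24 to −0.91] in the KO-labelled pair and −1.04 in WT, and overlaps Nme7 on the opposite strand. Cyp2d22 (−1.09), the netrin gene Ntn4 (−1.07), the kinase gene Sgk3 (−1.06), Tdrp (−1.06), Ms4a4c (−1.05), the ceramide synthase gene Cers6 (−1.03), the ubiquitin ligase gene Nedd4l (−0.95) and the glutathione transferase gene Gsta4 (−0.91) followed. All of them fell. Vmn2r97, Cyp2d22 and Ms4a4c belong to multigene families, among whose members counting may split reads. Ntn4, Cyp2d22 and Gsta4 had 42, 55 and 89 counts in KO-labelled aTreg.

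Most receptors that guide cells to tissue were higher in KO-labelled aTreg. Of 21 measured chemokine and trafficking receptor genes, 9 were at least 1.5-fold higher (3.06% of all genes were) and 2 (Ccr10 and Ccr7) lower (1.48%). The median was 0.43. Over both genotypes 15 rose and 3 fell, beside 7.91% and 5.44% of all genes. Ltb4r1, the receptor of leukotriene B4, went from 3.24 to 13.3 CPM (2.0 [1.62 to 2.48]). Cxcr6, the receptor of CXCL16, went from 8.29 to 33.4 CPM in the KO-labelled pair (2.0 [1.75 to 2.28]) and from 7.1 to 18.2 CPM in WT, and overlaps Fyco1 on the opposite strand. Ccr9, a receptor for the small intestine that overlaps Lztfl1, was at 13.4 and 39.4 CPM (1.55 [1.34 to 1.77]).

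Gpr55 (1.43), Ccr6 (1.04), Gpr15, a receptor for the colon (0.89), Ccr2 (0.69) and Ptger2 (0.68) were further members past 1.5-fold. Of the 9, all but Gpr15 rose. Gpr15 was at 0.06 in WT. Ccr10, a receptor for skin that overlaps Cntnap1, had 115 counts in KO-labelled rTreg and 51 in aTreg (−1.23 [−1.77 to −0.78]) and fell. Cxcr3, a receptor of type 1 inflammation, was at 197 and 258 CPM (0.39 [0.32 to 0.45] beside 1.33 in WT) and rose. Cxcr4 was at −0.33 in the KO-labelled pair and 0.09 in WT and did not pass.

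Integrin and adhesion genes changed by less. Of 20 measured, 4 were at least 1.5-fold higher (3.06% of all genes were) and none lower, with a median of 0.24. Over both genotypes 10 rose and 1, Itga6, fell, beside 7.91% and 5.44% of all genes. Itgae, which encodes CD103, the integrin chain that binds E-cadherin, went from 145 to 241 CPM in the KO-labelled pair (0.73 [0.66 to 0.81]) and from 78 to 214 CPM in WT, and overlaps Haspin on the opposite strand. Itga3 (0.65 [0.27 to 1.06]), Itga4, which overlaps Cerkl (0.60 [0.56 to 0.64]), and Itgb8, whose product activates TGF-beta (0.59 [0.32 to 0.86]), were the other 3, and all 4 rose.

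Of 23 Treg identity genes, 4 were at least 1.5-fold higher (3.06% of all genes were) and 1 lower (1.48%), with a median of 0.16. Over both genotypes 12 rose and 1 fell, beside 7.91% and 5.44% of all genes. Foxp3 was at 619 CPM in KO-labelled rTreg and 658 CPM in KO-labelled aTreg, and at 688 and 694 CPM in WT. Its ratio in the KO-labelled pair was 0.09 [0.05 to 0.13], and the edgeR test did not call it (adjusted p = 0.701). Penk (1.37), Dst, a cytoskeletal linker (0.71 [0.62 to 0.80]), Entpd1, which encodes the ectoenzyme CD39 (0.71 [0.57 to 0.85]), and Itgb8 were past 1.5-fold and rose. The orphan receptor gene Gpr83 was the one lower (−0.59 [−0.67 to −0.52]) and fell.

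**Figure D3:**
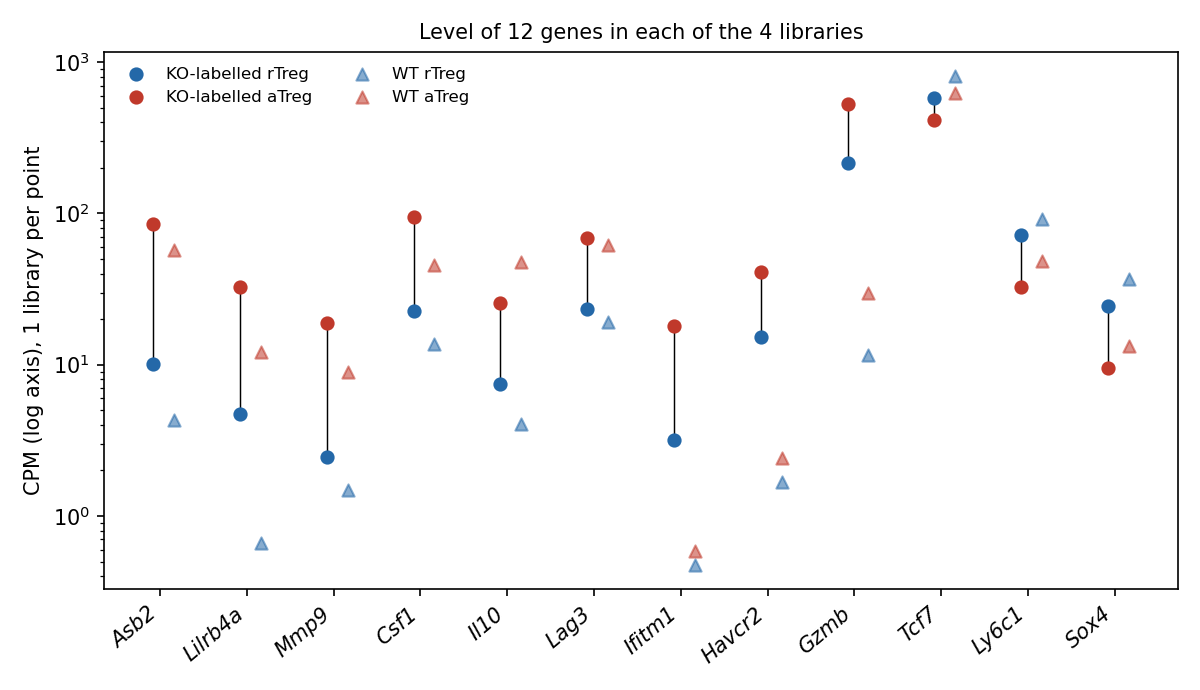
CPM (y axis, log scale) of 12 genes in each of the 4 libraries, 1 library per point: circles are KO-labelled and triangles WT, blue is rTreg and red aTreg, and lines join the KO-labelled pair. Asb2, Csf1 and Gzmb lie higher in aTreg and Tcf7, Ly6c1 and Sox4 lower in both genotypes, while Gzmb and Ifitm1 are higher in both KO-labelled libraries than in both WT libraries.

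Early-response genes of the T cell receptor had a median ratio of 0.24 in the KO-labelled pair, beside 0.475 in WT and 0.00405 over all genes. Of 20 measured, only Egr1 was at least 1.5-fold higher (3.06% of all genes were) and none was lower. The counting interval lay above 0 for 15 and below 0 for 3, beside 25.7% and 23% of all genes. Over both genotypes 12 rose and 1, Spred1, fell, beside 7.91% and 5.44% of all genes. Egr1, an immediate-early transcription factor, was at 161 CPM in KO-labelled rTreg, 248 CPM in KO-labelled aTreg, 164 CPM in WT rTreg and 916 CPM in WT aTreg. The WT aTreg library stood far above the other 3. The ratios were 0.62 [0.55 to 0.69] in the KO-labelled pair and 2.48 [2.43 to 2.53] in WT, a difference that was not tested. Ier5 (0.39 beside 0.61 in WT) and Egr3 (0.37 beside 1.21) rose, and Nr4a1, a reporter of receptor signal, went from 787 to 920 CPM (0.23 beside 0.81) and rose.

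Of 18 AP-1 and heat shock genes, Hspa1b was at least 1.5-fold higher (3.06% of all genes were) and Dnajb4 lower (1.48%). Over both genotypes 7 rose and 1 fell, beside 7.91% and 5.44% of all genes. Hspa1b, an inducible chaperone, went from 6.93 to 13.3 CPM (0.93 [0.62 to 1.26]) in the KO-labelled pair and by nearly the same ratio in WT (0.94). Its cochaperone Dnajb4 was 0.63 lower [0.35 to 0.93 lower]. Fosb (0.42 beside 1.06 in WT) and Fos (0.41 beside 1.10) had smaller ratios in the KO-labelled pair, and both rose over both genotypes.

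Of 25 NF-kappaB pathway and target genes, Bcl2a1d and Bcl2a1b were at least 1.5-fold higher (3.06% of all genes were) and none was lower. The median was 0.20, and 10 rose (7.91% of all genes did) while none fell. The anti-apoptotic Bcl2a1d and Bcl2a1b are near-identical copies, so reads may be shared between them, and their ratios were 0.95 [0.71 to 1.22] and 0.80 [0.32 to 1.34]. Nfkb2, a subunit of the alternative pathway, went from 232 to 290 CPM (0.32 [0.27 to 0.38]) and rose. Rela (0.03), Nfkb1 (0.13) and the inhibitor Nfkbia (0.01) did not pass.

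The genes of death receptors, necroptosis and apoptosis, which include the partners of RIPK1, had a median ratio of 0.04 in the KO-labelled pair. Of 33 measured, only Casp4, an inflammatory caspase, was at least 1.5-fold higher (0.60 [0.43 to 0.77]) and none was lower. Of all genes, 3.06% were at least 1.5-fold higher and 1.48% lower, so the count in this list is near the share over all genes. The counting interval lay above 0 for 14 members and below 0 for 7, beside 25.7% and 23% of all genes. Over both genotypes 4 rose and 4 fell, beside 7.91% and 5.44% of all genes. Ripk1 had a ratio of −0.07 [−0.17 to 0.04] (edgeR adjusted p = 0.447). Ripk3, the kinase of necroptosis, was at 82.3 and 96 CPM in the KO-labelled pair (0.22 [0.12 to 0.32]) and at 68 and 67.9 CPM in WT, and did not pass. Fadd, the adaptor of caspase-8, was at 15.6 and 16.1 CPM (0.05 [−0.19 to 0.29]). Casp8 went from 253 to 194 CPM in the KO-labelled pair and from 239 to 199 CPM in WT, so both aTreg libraries were below both rTreg libraries. Its ratio was −0.38 [−0.44 to −0.32], and it fell (edgeR adjusted p = 0.00707). Mlkl, the membrane-breaking effector of necroptosis, had 71 and 94 counts, below the level minimum, with a ratio of 0.31 [−0.15 to 0.78].

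The balance of the BCL2 family differed by member. Bcl2 went from 218 to 149 CPM (−0.55 [−0.62 to −0.48]) and the pro-apoptotic Bcl2l11, which encodes BIM, from 81.4 to 57.5 CPM (−0.50 [−0.62 to −0.39]), and both fell. Bcl2l1, which encodes BCL-XL, was at 38.8 and 56 CPM (0.53 [0.39 to 0.67]) in the KO-labelled pair, was 0.14 higher in WT, and did not pass (edgeR adjusted p = 0.0503).

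Interferon genes were mostly lower in KO-labelled aTreg. Of 29 type I interferon-stimulated genes, 24 had ratios below 0, 3 were at least 1.5-fold lower (1.48% of all genes were) and none higher. The median was −0.24, and 11 fell (5.44% of all genes did) while none rose. Oasl1, an antiviral protein gene, was at 8.8 and 4.37 CPM (−0.99 [−1.41 to −0.61]), Oasl2 at 35.6 and 21.2 CPM (−0.75 [−0.94 to −0.57]) and Ifit3 at 34.9 and 21.9 CPM (−0.67 [−0.85 to −0.49]). Oas2 (−0.58 [−0.75 to −0.43]) was next, and these 4 fell.

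Of 26 interferon-gamma response and IFITM genes, 18 had ratios below 0, and the median was −0.22 in the KO-labelled pair and 0.13 in WT. Over both genotypes 6 rose and 4 fell, beside 7.91% and 5.44% of all genes. Guanylate-binding protein genes, which encode defence GTPases, had ratios from −0.41 (Gbp9) to −0.16 (Gbp3) in the KO-labelled pair, and none passed the edgeR test. The immunity-related GTPase Irgm1 was the one member at least 1.5-fold lower (−0.60 [−0.73 to −0.47]) and fell, as did Iigp1 (−0.55), Tgtp1 (−0.55) and the transcription factor Irf1 (−0.40).

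In the same list, 4 members were at least 2-fold higher in KO-labelled aTreg. Ifitm1, a membrane protein that blocks virus entry, had 56 counts in KO-labelled rTreg and 336 in aTreg, that is 3.18 and 17.9 CPM, and was at 0.477 and 0.583 CPM in WT. The ratio was 2.46 [2.08 to 2.93] in the KO-labelled pair and 0.24 [−1.05 to 1.66] in WT, where it had 10 and 12 counts. Ifitm2 was at 13.1 and 29.5 CPM (1.17 [0.95 to 1.40]) and at 1.38 and 1.17 CPM in WT. The edgeR test called both higher, with adjusted p = 0.0022 for Ifitm1 and 0.0432 for Ifitm2. The serpin genes Serpina3g (42.6 to 92.3 CPM, 1.11) and Serpina3f (15.7 to 33.7 CPM, 1.10) rose, with ratios of 2.17 and 2.25 in WT. Reads may be shared among the Ifitm genes and among the Serpina3 genes, so their separate values are uncertain.

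Cell cycle genes had small negative medians in the KO-labelled pair. Of 39 mitosis genes, none was 1.5-fold apart (4.54% of all genes were), the median was −0.10, and the ratios ran from −0.57 to 0.11. Ratios were below 0 for 29 of them. The counting interval lay below 0 for 14 and above 0 for none, beside 23% and 25.7% of all genes. The summed level of the mitosis genes was 2627 CPM in KO-labelled rTreg, 2382 CPM in KO-labelled aTreg, 1128 CPM in WT rTreg and 664.5 CPM in WT aTreg. Both KO-labelled libraries were above both WT libraries, and in WT 32 of the 39 were at least 1.5-fold lower in aTreg (3% of all measured genes were), with a median of −0.95. The difference between the pairs was not tested.

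Over both genotypes 10 mitosis genes fell and none rose, beside 5.44% and 7.91% of all genes. The kinetochore gene Spc25 was at −0.57 [−0.87 to −0.27] in the KO-labelled pair, the checkpoint kinase gene Ttk at −0.51, the spindle protein gene Nusap1 at −0.51 [−0.68 to −0.34] and Birc5, which encodes survivin, at −0.35 [−0.46 to −0.23], and these 4 fell. Mki67, the proliferation marker, was at 706 and 648 CPM (−0.12 [−0.16 to −0.09] beside −0.80 in WT). Of 34 DNA replication and S phase genes, none was 1.5-fold apart in the KO-labelled pair, beside 4.54% of all genes. The median was −0.06, and 3 fell (5.44% of all genes did), Cdc45 and Rrm2 among them. Ccne2 had the lowest ratio, −0.40 [−0.65 to −0.16], and did not pass.

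Of 26 glycolysis and hypoxia genes, Hk2 was the one member at least 1.5-fold higher (3.06% of all genes were) and none was lower. The median was 0.22. Over both genotypes 8 rose and 2 fell, beside 7.91% and 5.44% of all genes. Hk2, an inducible hexokinase, was at 9.2 and 19.8 CPM (1.10 [0.83 to 1.38]), and Aldoa, an aldolase, went from 357 to 496 CPM (0.48). Both rose. The lactate transporter Slc16a3 (0.50 beside −0.06 in WT) and the regulatory enzyme Pfkfb4 (−0.53 [−0.94 to −0.14] beside 0.46) did not pass.

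Other metabolic and ribosomal lists had medians of −0.008 (cholesterol and fatty acid synthesis), 0.06 (oxidative phosphorylation) and −0.04 (cytosolic ribosomal proteins). Of all measured genes, 4.54% were 1.5-fold apart, 7.91% rose and 5.44% fell. Of 28 cholesterol and fatty acid synthesis genes none was 1.5-fold apart, and Sc5d (−0.31 [−0.43 to −0.20]) was the one that fell. Of 39 oxidative phosphorylation genes, Uqcrc1 was at least 1.5-fold lower (−0.77 [−1.20 to −0.38]) without passing the test (edgeR adjusted p = 0.0536), Cox8a rose and Atp5a1 fell. All 52 cytosolic ribosomal protein genes had ratios between −0.28 (Rps27) and 0.24 (Rpl28), and none passed.

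Of 17 galectins, S100 proteins and annexins, 3 were at least 1.5-fold higher in KO-labelled aTreg (3.06% of all genes were). The median was 0.16 beside −0.03 in WT, and 3 rose (7.91% of all genes did) while none fell. S100a4, a calcium-binding protein of motile cells, was at 16.2 and 30.9 CPM (0.92 [0.72 to 1.14] beside 0.26 in WT). Anxa4 (0.70 [0.43 to 1.0] beside 0.03) and Anxa11 (0.60 [0.48 to 0.73] beside 0.09) were the others. S100a4 and Anxa11 rose, and Anxa4 did not pass. S100a6 was at 229 and 324 CPM in the KO-labelled pair and 86 and 84.2 CPM in WT, and did not pass. Of 10 regulators of G-protein signalling, Rgs9 was at least 1.5-fold higher (1.06 [0.61 to 1.57]), and it, Rgs16 (0.56) and Rgs3 (0.54) rose.

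Set beside WT, with which it shares no library, the KO-labelled pair had fewer genes at least 2-fold apart among the 9680 measured genes. With no level filter the order turned, with 2068 genes in the KO-labelled pair and 1974 in WT. Among the 9680, in WT 181 genes (1.87%) were at least 2-fold higher in aTreg and 70 (0.723%) at least 2-fold lower, together 2.59%, and at 1.5-fold the shares were 4.49% higher and 7.49% in all. Of the 92 genes at least 2-fold higher in the KO-labelled pair, 65 were so in WT, which is 70.7% of the 92 and 35.9% of the 181, and of the 13 lower genes 7 were, 53.8% of the 13 and 10% of the 70. The direction was the same in WT for 89 of the 92 and for all 13. The exceptions, Pde4a (1.26 beside −0.23), Ifitm2 and Stra6 (1.02 beside −0.19), had 130, 553 and 127 counts in KO-labelled aTreg. The 181 genes at least 2-fold higher in WT had a median of 0.81 in the KO-labelled pair, and the 70 lower ones a median of −0.37. The SD of the ratios over all measured genes was 0.286 in the KO-labelled pair and 0.348 in WT. Whether the pairs differ in spread was not tested.

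Among genes with at least 50 counts in every library, those whose ratio differed most from WT were of several kinds. Smaller in the KO-labelled pair were, besides Egr1 and Il10, the chemokine Cxcl10 (0.21 beside 1.74), the MHC class I gene H2-Q10, which may share reads with its relatives (0.12 beside 1.49), Gas2l1 (0.66 beside 1.95) and the drug efflux pump Abcb1a (0.90 beside 2.17). Abcb1a was at 34.1 and 63.5 CPM in the KO-labelled pair and 15.4 and 70 CPM in WT. Lower in WT aTreg but nearly level in the KO-labelled pair were Cdca5, which acts in chromosome cohesion (−0.17 beside −1.48), Mxd3 (−0.04 beside −1.33), Trpm1 (−0.15 beside −1.40) and Tnnt2 (−0.09 beside −1.31). These differences rest on 1 library per group and were not tested.

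**Figure D4:**
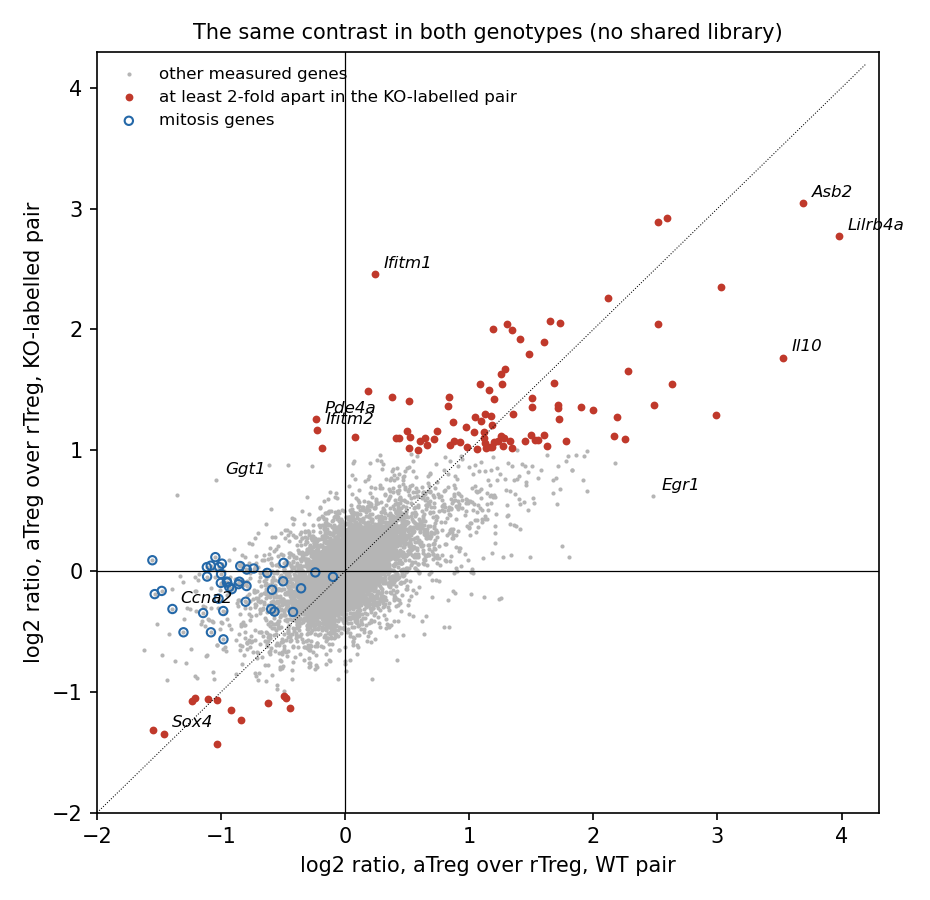
Log2 ratio of aTreg over rTreg in the KO-labelled pair (y axis) against the same ratio in WT (x axis), 1 point per measured gene, 1 library per group and no library in common. Red points are the 105 genes at least 2-fold apart in the KO-labelled pair and blue circles the 39 mitosis genes, and the dotted diagonal marks equal ratios. Egr1 and Il10 lie below the diagonal and Ifitm1 and Ggt1 above it. The mitosis genes lie between −0.57 and 0.11 on the y axis and mostly below −0.5 on the x axis.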

How the data were processed

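Total RNA was prepared with TRIzol and turned into libraries with a kit of the SMARTer type, per the labels' protocols. Per the submitters' processing notes, the build was GRCm38, the aligner HISAT2 2.2.1 and the counter featureCounts 2.0.1. The sources used here give neither the annotation nor the strand setting, so overlapping genes on opposite strands may share reads. The deposited values used for every ratio are whole counts per gene symbol, without normalization by the authors. Variance-stabilised values, which the file headers give on a log2-like scale, were deposited too and served as an alternative. The same deposited file has a log2 fold change, a mean signal (counts over size factors), a test statistic (a score) and a p-value for the genotypes, per the file headers, and these were not used.

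A mean of 5 CPM was required, which kept 9680 genes with 99.3% of the counts. TMM scaling (edgeR 4.0.16, R 4.3.3) gave factors from 0.995 to 1.006, and log2 ratios used a prior count of 2. Intervals use counts without it, cover counting error only, and can lie off center at few counts. With 1 library per group the pair has no test. The additive edgeR test has 1 residual degree of freedom beside a prior weight of 11.8, and nothing in the labels says that the libraries come from separate animals or cultures. It and the counting intervals were tested on simulated data. DESeq2 1.42.0, other scalings, level minimums and prior counts were alternatives. Gene positions are from GENCODE M21 on GRCm38.

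The members, the 24 gene lists and the tests were chosen with earlier results of these data known. Named are Ripk1, Foxp3, Il2ra, Ripk3, Mlkl, Fadd, Casp8 and Cd44, and the 25 highest and 15 lowest ranked genes of the pair. Ranked are the 9256 measured genes that are no predicted genes, clones, pseudogenes or antigen receptor segments. Also named are the 10 largest gains and losses in CPM, the 4 members of each list with the largest ratio, and those behind a count of 5 or fewer. The 8 genes per direction that differ most from WT, with at least 50 counts in each library, and close relatives complete the rule. Some genes under this rule are not reported here. Other names were chosen after their values were seen.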

Additional observations from a re-analysis of the deposited data

Results flagged for a closer look

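The genes screened were those named singly, by rank, by CPM, by largest ratio in a list and by difference from WT. Among those whose ratio differed by at least 1 log2 unit between the pairs, 4 had opposite directions, with intervals that exclude 0 in both. Il12rb2 (0.62 in the KO-labelled pair beside −1.36 in WT) and Prf1 (0.87 beside −0.61) were named for other reasons and were not screened. None of these differences was tested. Pfkfb4, Malat1, Actg1, Rps27, Rpl28 and B2m were opposite in the same way with a smaller difference. Ggt1, which encodes a gamma-glutamyltransferase, was higher in KO-labelled aTreg (log2 ratio 0.75 [0.44 to 1.09]) and lower in WT aTreg (−1.04 [−1.53 to −0.61]), a difference of 1.79. Sema7a, which encodes a semaphorin, was at 0.88 [0.58 to 1.20] in the KO-labelled pair and −0.46 [−0.91 to −0.04] in WT, a difference of 1.34. Plac8 was at −0.22 [−0.44 to −0.001286] and 1.12 [0.83 to 1.44], a difference of −1.34, and Ddx43, which encodes a helicase, at −0.46 [−0.85 to −0.09] and 0.84 [0.54 to 1.16], a difference of −1.30. The edgeR additive test called none of the 4. It averages the state ratio over the pairs, so opposite ratios cancel in it and it cannot judge the difference between them.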

How the results depend on the processing

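With 1 library per group, no library could be left out. The states could not be paired by mouse, because each group has 1 library and the labels carry no replicate numbers. The additive edgeR test compared them within genotype. The KO-labelled pair had 105 genes past 2-fold (92 higher, 13 lower). This became 319 (219 and 100) with a minimum of 1 CPM, 36 (30 and 6) with 20 CPM, 2068 (1174 and 894) with no level filter and 17 (16 and 1) between the authors' variance-stabilised values, whose scale shrinks ratios at low counts. In WT, with 251 such genes, these became 550, 95, 1974 and 33, so that the KO-labelled pair had more than WT with no level filter and fewer under the others. The additive test called 428 genes with DESeq2 (300 higher, 128 lower) in place of 1293 with edgeR, and with no level filter edgeR called 793 lower in place of 527. The cause was not tested. Other scalings moved the median ratio of the KO-labelled pair by at most 0.0094. They moved none of the 24 list medians by more than the median interval half-width of its members. The direction of medians close to 0 was not checked. The ratios of 82 named genes moved beyond their interval with the variance-stabilised values. No named gene at least 2-fold apart turned to the opposite direction, and direction was not checked for smaller ratios. Depth limits genes with few counts: below 10 CPM the interval reached, at the median, 0.367 log2 units to either side.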
